A study of Rattus norvegicus with 56 samples.

Results

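Liver RNA of female rats that were growth restricted before birth and then raised on a high-fat, high-fructose diet (IUGR-HFhf) was compared with that of chow-fed female controls (CON), at zeitgeber time 4 (ZT4), 4 h into the light phase. The comparison holds 7 of the 56 libraries of the series, 4 IUGR-HFhf and 3 CON, chosen by the labels for sex, time and study group. All are Sprague-Dawley offspring at day 180 on a cycle of 12 h light and 12 h dark, with no transgene or deletion named. CON dams and offspring ate regular chow. IUGR-HFhf dams received 50% of their calories as chow from gestation day 10 until birth. From birth on they were given the HFhf diet (Western chow, and water with 25% fructose), as the offspring were until the end of the study. Another group at the same sex and time, HFhf (3 libraries), came from dams moved to the HFhf diet at gestation day 11 with no calorie restriction, and is set beside the other groups only where values are compared. The labels name no litters. P-values rest on the spread between animals within a group, pooled over all 56 libraries, whether or not littermates are among them. The organism is given as rat, although 1 label of the tissue source speaks of mouse.

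The liver makes cholesterol from acetyl-CoA through the mevalonate pathway, whose enzymes are under the control of the transcription factor SREBP-2, and makes fatty acids from sugar through enzymes under the control of SREBP-1c and ChREBP. Dietary cholesterol is known to lower the first set and dietary fructose to raise the second. Both pathways, and much of hepatic metabolism, also follow the circadian clock, in which BMAL1 and its partners drive the Period, Cryptochrome and Dbp genes at set times of day.

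CON libraries held 16.2 M to 18.7 M counted reads and IUGR-HFhf libraries 7.50 M to 11.1 M, so depth and diet cannot be told apart. Levels are given as CPM, the reads of a gene per 1 M reads of the scaled library. A gene was called where edgeR's quasi-likelihood test gave a Benjamini-Hochberg adjusted p below 0.05 over 11047 genes. With CON thinned to 10.3 M reads, 62 genes were called, 60 of them among the 75 reported below. Of 41 called genes named by the rules given under processing, 7 lost their call there: Cry1, Csmd1, Dbp, Dmrta1, Marco, Rgs8 and Slc22a8.

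Hepatocyte markers led all 7 libraries, with albumin (Alb) at 166930.0, 155621 and 164909 CPM in CON and 234513, 195359, 151005 and 277118 CPM in IUGR-HFhf. Markers of other tissues were uneven. Summed over 9 genes of pancreatic acinar cells, the level was 61.2 to 145 CPM in CON, almost all of it from Cpa1, and 3.22, 622, 1952 and 11.5 CPM in IUGR-HFhf replicates 1 to 4. The remaining libraries of the series outside the IUGR-RC group lay between 1.55 and 212 CPM. Within that group, females had 154 to 398 CPM and males 3.44 to 12.2 CPM. Skeletal muscle markers (19 genes in the table) summed to 84.95 CPM in IUGR-HFhf replicate 2 and to 3.25 to 5.98 CPM in the other 6 libraries. Adipocyte markers (7 genes) summed to 44.7 CPM in IUGR-HFhf replicate 3 and to 10.3 to 16.95 CPM in the other 6. Replicate 2 thus carried muscle and acinar transcripts, and replicate 3 acinar and adipocyte transcripts. With both left out, an alternative chosen after seeing the data, 20 of the 41 called genes named by rule lost their call and 1 changed sign. Their values there are given with each gene group. Of all 75 genes called, 33 kept their call there.

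**Figure D1:**
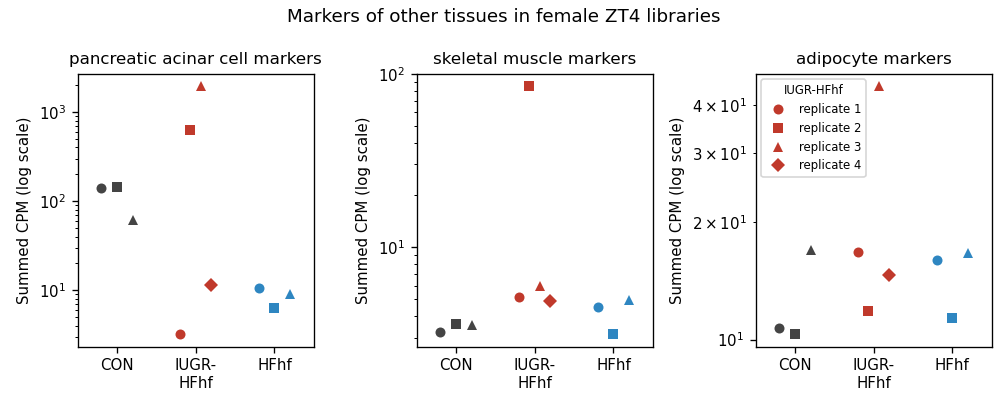
Summed CPM (log scale) of markers of pancreatic acinar cells, skeletal muscle and adipocytes in each female ZT4 library, with 1 symbol per library and the symbol shape giving the replicate number. Among the IUGR-HFhf libraries, replicates 2 and 3 reached 622 and 1952 CPM of acinar markers, replicate 2 reached 84.95 CPM of muscle markers and replicate 3 reached 44.7 CPM of adipocyte markers.

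Of 11047 genes tested, 75 were called between IUGR-HFhf and CON, 35 higher and 40 lower in IUGR-HFhf, which is 0.679% of genes (0.317% higher and 0.362% lower). Without adjustment, 1034 genes (9.36%) had p under 0.05. The CPM of the groups did not overlap for 1162 genes (10.5%), 541 with IUGR-HFhf higher (4.90%) and 621 with it lower (5.62%). The median log2 fold change of all genes was 0.01, and the median 95% interval reached 0.37 to either side. The count of 75 fell to 36, 41 and 45 when CON replicate 1, 2 or 3 was left out and to 48 and 32 without IUGR-HFhf replicate 1 or 4. It was 85 and 75 without IUGR-HFhf replicate 2 or 3. In all 7 of these fits 15 of the 75 genes were called, among them Dhcr7, Herpud1, Foxp2, Vsx1, Mab21l3 and Rcan2. The acinar genes Cpb1 and Cela1 are also among the 15, although their calls rest on IUGR-HFhf replicates 2 and 3. A call kept in all 7 fits can therefore still depend on those 2 libraries together. A fit of only the 2 groups compared called 68 genes, 34 of them among the 75. There 25 of 40 called genes named by rule, Mab21l3 among them, lost their call.

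Cholesterol synthesis held the most called genes of any list. Of 27 tested, 5 fell in IUGR-HFhf and none rose, 26 had a negative log2 fold change, and 15 had CPM wholly below those of CON, against 0.362% and 5.62% of all genes. The list's median log2 fold change was -0.57. The 5 that fell were Hmgcs1, Mvk, Idi1, Sqle and Dhcr7, which act from the entry of the pathway to its last step. The median over the 27 genes of log2 CPM relative to the CON mean (0.5 CPM added) was -0.40, -0.48, -0.72 and -0.34 in IUGR-HFhf replicates 1 to 4 and between -0.22 and 0.10 in CON. Each IUGR-HFhf library was therefore below each CON library.

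Hmgcs1, the cytosolic HMG-CoA synthase, stood at 446, 899 and 369 CPM in CON and at 225, 163, 165 and 177 CPM in IUGR-HFhf. The groups did not overlap and the means differed 3.13-fold (log2 fold change -1.65 ± 0.30 (SE), adjusted p = 0.00257). CON replicate 2 was the highest of the 7, and without it the adjusted p was 0.0978. Idi1, the isomerase that makes dimethylallyl diphosphate, had 50.3, 87.6 and 39.9 CPM in CON against 24.6, 11.7, 12.6 and 15.6 CPM, a 3.67-fold lower mean (log2 fold change -1.89 ± 0.40 (SE), adjusted p = 0.0142). Without CON replicate 2 its adjusted p was 0.15.

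Sqle, the squalene epoxidase, fell from 59.6, 76.7 and 38.7 CPM in CON to 22.5, 14.9, 11.9 and 21.5 CPM in IUGR-HFhf, with no overlap (log2 fold change -1.73 ± 0.41 (SE), adjusted p = 0.0314). This call was kept in 2 of the 7 fits that left out a library, the adjusted p being 0.0712 to 0.188 without CON replicate 1 or 2 or IUGR-HFhf replicate 2, 3 or 4. Dhcr7, which carries out the last reduction to cholesterol, measured 269, 261 and 216 CPM in CON and 112, 85.8, 103 and 107 CPM in IUGR-HFhf. The groups were far apart (log2 fold change -1.29 ± 0.21 (SE), adjusted p = 0.000536), and the call held in all 7 fits. For Mvk, the mevalonate kinase, the levels were 24.98, 21.2 and 14.7 CPM in CON and 11.5, 12.5, 13.3 and 9.92 CPM in IUGR-HFhf, close to each other but not overlapping (log2 fold change -0.78 ± 0.17 (SE), adjusted p = 0.0142). Its adjusted p was 0.185, 0.0652 and 0.0847 without CON replicate 1, CON replicate 2 and IUGR-HFhf replicate 4.

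The remaining 22 cholesterol genes had log2 fold changes from -1.20 (Msmo1, a sterol methyl oxidase, adjusted p = 0.134) to 0.08 (Sc5d, adjusted p = 0.984). Srebf2, which encodes SREBP-2, had a log2 fold change of -0.18 and an adjusted p of 0.722. With the acinar-bearing replicates 2 and 3 both left out, Dhcr7 and Mvk were still called, while Hmgcs1, Idi1 and Sqle had adjusted p of 0.06, 0.182 and 0.288. In the fit of only the groups compared, Dhcr7 was called, and Hmgcs1, Idi1, Mvk and Sqle were not.

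**Figure D2:**
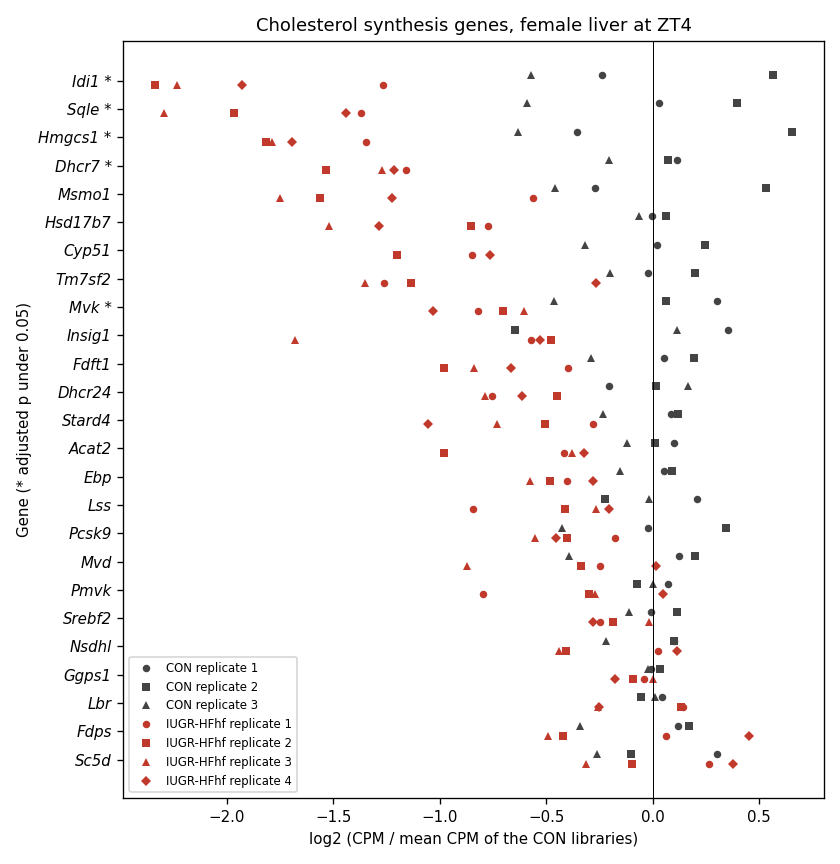
Level of 25 of the 27 cholesterol synthesis genes in each library, as log2 of CPM over the CON mean, with CON in grey, IUGR-HFhf in red and 1 symbol shape per replicate. Red points lie left of grey ones for the genes at the top, the 5 starred genes being called, and mix with them for those at the bottom, such as Sc5d.

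Promoters are shown for the called genes that moved together. Of the 27 cholesterol genes, 19 had an entry in the RefSeq promoter table (build GRCr8, matched by symbol), as did 4 of the 5 called ones. The 250 bases before the start were searched on both strands for CCAAT and for the GC box GGGCGG. The first was found in 16 of the 19 (84.2%), against 35.8% of the promoters of all tested genes and 34.3% of the whole table. GGGCGG was also found in 16 of 19, against 57.8% of tested genes. Of the 4 called cholesterol genes with an entry, 3 held CCAAT (not Dhcr7) and 3 held GGGCGG (not Idi1). Of the 36 genes called lower that had an entry, 44.4% held CCAAT and 55.6% GGGCGG. The sterol response element letters TCACNCCAC were in none of the 19 and in 1.01% of tested genes, and the E-box CACGTG was in 2 of 19 (10.5%, against 8.10%). These matches describe letters in this window and not sites of binding. In the sequences, written 5′ to 3′ on the strand of the gene and ending at the base before the start, capitals mark the CCAAT box and the GC box in either orientation.
Hmgcs1 (chr2:53382054-53382303, plus strand): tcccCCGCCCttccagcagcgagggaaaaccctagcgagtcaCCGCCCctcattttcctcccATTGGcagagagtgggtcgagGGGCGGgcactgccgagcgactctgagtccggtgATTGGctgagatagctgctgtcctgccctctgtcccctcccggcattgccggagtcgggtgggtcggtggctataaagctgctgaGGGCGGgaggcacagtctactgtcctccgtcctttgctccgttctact
Mvk (chr12:47819504-47819753, minus strand): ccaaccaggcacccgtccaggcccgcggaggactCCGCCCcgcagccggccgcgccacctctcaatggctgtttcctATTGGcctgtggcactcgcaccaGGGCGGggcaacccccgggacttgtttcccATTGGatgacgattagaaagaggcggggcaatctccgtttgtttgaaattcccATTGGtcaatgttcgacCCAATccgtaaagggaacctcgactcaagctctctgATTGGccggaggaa
Idi1 (chr17:66547525-66547774, minus strand): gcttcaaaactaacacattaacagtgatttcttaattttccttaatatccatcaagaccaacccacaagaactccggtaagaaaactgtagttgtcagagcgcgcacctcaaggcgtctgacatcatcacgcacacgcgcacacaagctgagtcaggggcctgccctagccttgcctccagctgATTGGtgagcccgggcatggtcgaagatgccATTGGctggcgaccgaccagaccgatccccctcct
Dhcr7 (chr1:208444184-208444433, plus strand): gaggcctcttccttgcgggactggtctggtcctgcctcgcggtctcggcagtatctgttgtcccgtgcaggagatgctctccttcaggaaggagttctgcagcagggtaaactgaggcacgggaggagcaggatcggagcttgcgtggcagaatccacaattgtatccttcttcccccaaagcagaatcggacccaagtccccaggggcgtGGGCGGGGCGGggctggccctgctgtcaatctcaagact

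Called genes of lipid synthesis were higher. Of 25 genes of fatty acid and triglyceride synthesis tested, 2 rose (Scd2 and Dgat2; 0.317% of all genes were called higher) and none fell, with a median log2 fold change of 0.33, 20 positive values and 10 genes wholly above CON (4.90% of all genes were). Scd2, a stearoyl-CoA desaturase, had 92.01, 121 and 20.1 CPM in CON and 265, 1546, 649.8 and 2440.2 CPM in IUGR-HFhf. The groups did not overlap, but each spread widely, and the mean was 15.8-fold higher (log2 fold change 3.98 ± 0.96 (SE), adjusted p = 0.0324). This call was lost without any 1 CON library or without IUGR-HFhf replicate 4 (adjusted p 0.0978 to 0.173), and without replicates 2 and 3 together (0.0555). Dgat2, which completes triglycerides, rose from 911, 823 and 927 CPM to 1262, 1571, 1362 and 1888 CPM (log2 fold change 0.78 ± 0.16 (SE), adjusted p = 0.0101). Without CON replicate 2 or IUGR-HFhf replicate 4 its adjusted p was 0.0787 or 0.0794.

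Fasn, the fatty acid synthase, was at 3336, 2458 and 3170.0 CPM in CON and 3445, 9390.2, 5544 and 7276 CPM in IUGR-HFhf. The lowest IUGR-HFhf library, replicate 1, lay just above the highest CON library, and the difference was not called (log2 fold change 1.10 ± 0.47 (SE), adjusted p = 0.407; 95% interval 0.15 to 2.06). Scd1, the main hepatic desaturase, had 7147, 2781 and 8823 CPM in CON and 12785, 18190.0, 16545 and 15379 CPM in IUGR-HFhf, again without overlap and without a call (log2 fold change 1.33 ± 0.47 (SE), adjusted p = 0.243). Srebf1, which encodes SREBP-1c, had 585, 469.8 and 408 CPM and 670.4, 1073, 635 and 835 CPM (log2 fold change 0.72 ± 0.30 (SE), adjusted p = 0.366).

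Among lipoprotein genes 2 of 24 rose, against 0.317% of all genes, and none fell. Tm6sf2, which acts in VLDL lipidation, had 41.9, 32.5 and 43.1 CPM in CON and 57.3, 68.9, 74.7 and 81.03 CPM in IUGR-HFhf, well separated (log2 fold change 0.85 ± 0.16 (SE), adjusted p = 0.00293; 0.0594 without CON replicate 2). Fabp2, a fatty acid binding protein best known from the intestine, went from 2.37, 2.40 and 2.25 CPM to 7.97, 5.71, 5.73 and 17.02 CPM, replicate 4 being the highest (log2 fold change 1.95 ± 0.46 (SE), adjusted p = 0.031). Without any 1 CON library or IUGR-HFhf replicate 4 its adjusted p was 0.121 to 0.21. None of 14 lipid droplet genes was called. Plin2, which coats droplets, had 301, 236 and 286 CPM and 262, 392.01, 382 and 479 CPM, which overlap.

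Fatty acid oxidation showed 1 gene called higher of 46, against 0.317% of all genes. Cpt1a, the carnitine palmitoyltransferase that admits fatty acids to mitochondria, had 142, 101 and 141 CPM in CON and 285, 224, 265 and 573 CPM in IUGR-HFhf, a 2.64-fold higher mean with no overlap (log2 fold change 1.40 ± 0.33 (SE), adjusted p = 0.0314). Its adjusted p was 0.0932 to 0.209 without any 1 CON library or IUGR-HFhf replicate 4. Ppara, the receptor that governs this program, was higher in all 4 IUGR-HFhf libraries (37.98, 40.5 and 42.1 CPM against 62.5, 76.2, 50.2 and 66.5 CPM) and not called (log2 fold change 0.67 ± 0.25 (SE), adjusted p = 0.272). Pdk4, Cd36 and Fgf21, all PPAR-alpha targets, had overlapping groups and adjusted p of 0.991, 0.974 and 0.725.

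In sugar metabolism 1 of 29 genes of glycolysis, fructose use and the pentose phosphate path rose (0.317% of all genes) and none fell, with 26 positive values and a median of 0.30. The median over the 29 genes in each library was computed as for cholesterol synthesis. It was 0.093, -0.318 and 0.150 in CON and 0.146, 0.254, 0.441 and 0.351 in IUGR-HFhf. The groups thus overlapped at IUGR-HFhf replicate 1. Pklr, the liver pyruvate kinase, had 667, 447 and 669.8 CPM in CON and 1294, 1286, 1343 and 1398 CPM in IUGR-HFhf. The 4 IUGR-HFhf libraries were close together and all above CON, and the mean was 2.24-fold higher (log2 fold change 1.16 ± 0.28 (SE), adjusted p = 0.0314). Its call was kept in 1 of 7 fits that left out a library (without IUGR-HFhf replicate 2), and the adjusted p was otherwise 0.0504 to 0.244 (0.0904 without replicates 2 and 3). Khk, the ketohexokinase that phosphorylates fructose, had a log2 fold change of 0.22 with overlapping groups (adjusted p = 0.831). None of 17 genes of gluconeogenesis and glycogen was called. Pck1, the gluconeogenic carboxykinase, had 1264, 291 and 2354 CPM in CON and 508, 478, 221 and 341 CPM in IUGR-HFhf, overlapping at CON replicate 2, which was low (log2 fold change -1.75 ± 0.50 (SE), adjusted p = 0.0912). G6pc, the glucose-6-phosphatase, had 999.9, 337 and 938 CPM and 300.4, 324, 326 and 175 CPM, with CON replicate 2 again the lowest of CON (log2 fold change -1.43 ± 0.57 (SE), adjusted p = 0.332).

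**Figure D3:**
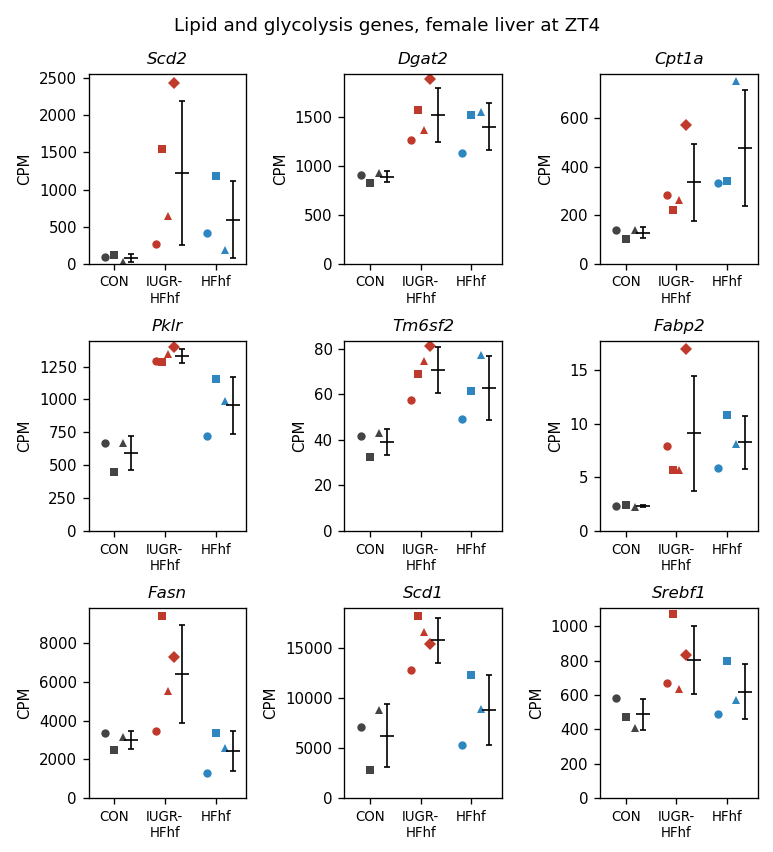
CPM of 9 lipid and glycolysis genes in each female ZT4 library, with CON in grey, IUGR-HFhf in red and HFhf in blue, and the group mean ± SD in black. Scd2, Dgat2, Cpt1a, Pklr, Tm6sf2 and Fabp2 were called between IUGR-HFhf and CON, and Fasn, Scd1 and Srebf1 were not.

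Called clock genes moved in both directions. Of 16 tested, Dbp and Per3 rose and Cry1 fell, against 0.679% of all genes called in either direction. In CON, Dbp, a clock-driven transcription factor, was at 3.61, 3.87 and 3.54 CPM and in IUGR-HFhf at 102, 36.1, 7.83 and 57.7 CPM. The groups did not overlap, the 4 IUGR-HFhf libraries spanned a wide range, and the mean was 13.9-fold higher (log2 fold change 3.78 ± 0.95 (SE), adjusted p = 0.0439). CON females at ZT16 had 75.2 to 132 CPM, so replicate 1 of IUGR-HFhf lay within that range while replicate 3 was nearest to CON at ZT4. Per3, a Period gene, was at 3.51, 3.64 and 3.03 CPM in CON and 53.7, 36.3, 6.30 and 19.1 CPM in IUGR-HFhf (log2 fold change 3.06 ± 0.66 (SE), adjusted p = 0.0142), against 69.5 to 75.9 CPM in CON at ZT16. Cry1, a cryptochrome that represses BMAL1, had 13.8, 9.03 and 10.4 CPM and 5.87, 7.71, 3.39 and 2.61 CPM (log2 fold change -1.20 ± 0.28 (SE), adjusted p = 0.0245), away from the 15.8 to 22.5 CPM of CON at ZT16.

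The other 13 clock genes were not called. Nr1d1 came nearest (log2 fold change 1.98, adjusted p = 0.0604). Of all 16, called ones included, 5 had CPM wholly above CON and 4 wholly below, against 4.90% and 5.62% of all genes. Arntl, which encodes BMAL1, had 56.04, 52.2 and 57.9 CPM in CON and 12.03, 41.3, 40.2 and 25.6 CPM in IUGR-HFhf, lower in all 4 libraries and lowest in replicate 1 (log2 fold change -0.88 ± 0.51 (SE), adjusted p = 0.633). Npas2, a partner of BMAL1, had 44.9996, 51.4 and 51.6 CPM and 13.8, 46.9, 51.3 and 24.7 CPM, and Per2 21.9, 17.01 and 9.93 CPM and 37.3, 25.7, 7.83 and 16.1 CPM, both overlapping (adjusted p 0.885 and 0.887). The 3 called genes lost their calls when single libraries were left out. For Dbp the adjusted p was 0.101 to 0.186 without any 1 CON library or IUGR-HFhf replicate 1 or 4. For Per3 it was 0.0662 to 0.0899 without any 1 CON library or IUGR-HFhf replicate 1. For Cry1 it was 0.0547 to 0.185 without CON replicate 1 or 3 or IUGR-HFhf replicate 3 or 4. Thinning CON to the depth of IUGR-HFhf removed the calls of Dbp and Cry1. Dbp was also not called without the filter on low counts. None of the 3 was called in the fit of only the groups compared. The hour of each animal's death within ZT4 is not given in the sources used here, and its part in these values was not tested.

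**Figure D4:**
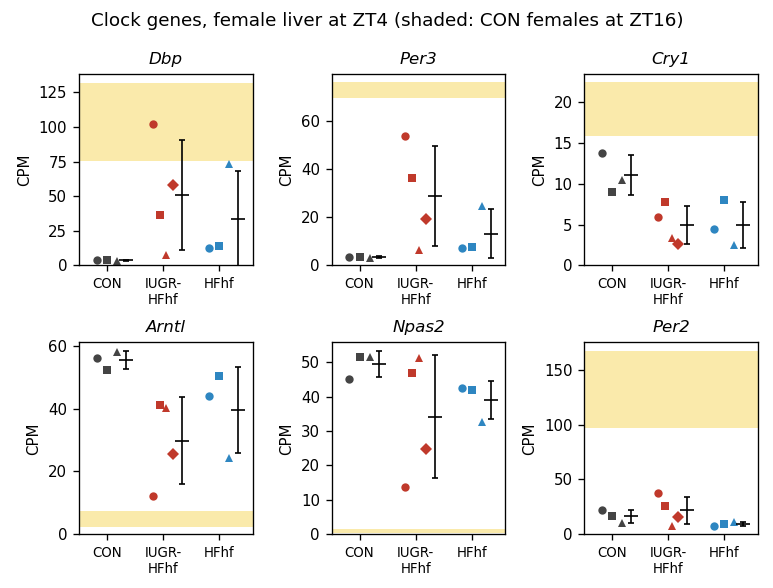
CPM of 6 clock genes in each female ZT4 library, with CON in grey, IUGR-HFhf in red, HFhf in blue, the group mean ± SD in black and the range of CON females at ZT16 shaded. For Dbp the IUGR-HFhf points run from 7.83 to 102 CPM while the 3 CON points sit between 3.54 and 3.87 CPM.

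Genes of the endoplasmic reticulum showed 1 rise among 25, against 0.317% of all genes. Herpud1, a membrane protein of the degradation machinery induced by the unfolded protein response, had 131, 136 and 116 CPM in CON and 299, 253, 228 and 226 CPM in IUGR-HFhf. Every IUGR-HFhf library was well above every CON library (log2 fold change 0.98 ± 0.18 (SE), adjusted p = 0.00257), and the call held in all 7 fits. None of the other 24 was called, the smallest adjusted p being 0.517, and none of 21 genes of the ATF4 response was called. The motif named ER stress element II is in 8 of the 8420 promoters of tested genes (0.0950%), Herpud1 among them. None of the other 7 genes was called, among them the ER chaperone Hyou1 (log2 fold change 0.13, adjusted p = 0.959). It is capitalised in the 250 bases before its start. The motif was searched for after the call was known.
Herpud1 (chr19:10614708-10614957, minus strand): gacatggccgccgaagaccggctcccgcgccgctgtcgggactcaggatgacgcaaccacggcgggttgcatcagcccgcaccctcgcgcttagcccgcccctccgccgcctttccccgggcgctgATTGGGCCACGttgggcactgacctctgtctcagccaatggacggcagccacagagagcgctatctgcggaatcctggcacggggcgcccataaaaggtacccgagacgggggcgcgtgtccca

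Called genes of amino acid use and detoxification were lower. Aass, which breaks down lysine, had 334, 263 and 403 CPM in CON and 91.8, 210.3, 125 and 116 CPM in IUGR-HFhf (log2 fold change -1.29 ± 0.27 (SE), adjusted p = 0.00912; adjusted p 0.071 without CON replicate 3). Gls2, the liver glutaminase, had 269, 166 and 265 CPM and 118, 151, 114 and 149 CPM (log2 fold change -0.81 ± 0.19 (SE), adjusted p = 0.0223). These were the 2 of 29 genes of amino acid breakdown and the urea cycle that fell, none rose, and the median was -0.32 with 23 negative. The median over the 29 genes in each library was computed as for cholesterol synthesis. It was 0.13, -0.25 and 0.09 in CON and -0.40, -0.13, -0.50 and -0.33 in IUGR-HFhf. CON replicate 2 thus lay below IUGR-HFhf replicate 2. Of all genes, 0.362% were called lower. Of 18 genes of methionine metabolism, Cbs, which starts transsulfuration, and Gnmt, which consumes S-adenosylmethionine, fell. Cbs had 303, 263 and 304 CPM and 194, 199, 162 and 181 CPM (log2 fold change -0.66 ± 0.16 (SE), adjusted p = 0.033), and Gnmt 124, 56.3 and 98.4 CPM and 40.1, 49.5, 51.04 and 45.2 CPM (log2 fold change -0.999 ± 0.25 (SE), adjusted p = 0.0405). Gls2 was called in 3 of the 7 fits that left out a library (adjusted p 0.0647 to 0.16 without CON replicate 1 or 3 or IUGR-HFhf replicate 1 or 3). Without replicates 2 and 3 the adjusted p of Gls2, Cbs and Gnmt was 0.0964, 0.167 and 0.0996. Cbs and Gnmt were each called in 1 left-out fit, Cbs without IUGR-HFhf replicate 2 and Gnmt without CON replicate 2, with adjusted p of 0.0594 to 0.149 and 0.056 to 0.367 in the others.

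Of 34 glutathione and NRF2 genes, Gstm2 and Gstm7 fell (0.362% of all genes did), both glutathione S-transferases of the mu class, whose near-identical members can share reads, so their values are uncertain. Gstm2 had 259, 153 and 168 CPM in CON and 23.4, 70.7, 80.8 and 88.1 CPM in IUGR-HFhf, replicate 1 being the lowest (log2 fold change -1.55 ± 0.37 (SE), adjusted p = 0.0314). Gstm7 had 61.5, 48.5 and 46.4 CPM and 20.98, 34.7, 29.3 and 16.2 CPM (log2 fold change -1.04 ± 0.23 (SE), adjusted p = 0.0168). Without CON replicate 1 or 3 or IUGR-HFhf replicate 1 or 2, Gstm2 had an adjusted p of 0.0501 to 0.222, and without CON replicate 1 or IUGR-HFhf replicate 1 or 4, Gstm7 had 0.0682 to 0.138. For Gstm2 it was 0.0776 without replicates 2 and 3. Among 46 drug metabolism genes 1 fell, against 0.362% of all genes, Sult1c2, a sulfotransferase, from 1.70, 3.17 and 1.80 CPM to 0.280, 1.06, 0.404 and 0.104 CPM (log2 fold change -2.22 ± 0.51 (SE), adjusted p = 0.0223), with an adjusted p of 0.0599 to 0.178 without CON replicate 2 or IUGR-HFhf replicate 1, 3 or 4. Without replicates 2 and 3 its log2 fold change was -3.53 (adjusted p = 0.02). The drug metabolism list had 35 of 46 negative values and a median of -0.38.

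Esr1, the estrogen receptor, was the only called member among 22 genes of growth hormone and sex-dependent expression, and was lower (0.362% of all genes were). It had 50.5, 38.9 and 46.3 CPM in CON and 14.5, 21.2, 33.2 and 13.2 CPM in IUGR-HFhf, replicate 3 being nearest to CON (log2 fold change -1.13 ± 0.25 (SE), adjusted p = 0.0163), and an adjusted p of 0.0516 to 0.101 without CON replicate 1 or 3 or IUGR-HFhf replicate 1 or 4. Esr1 had a log2 fold change of -1.71 without replicates 2 and 3. Hsd11b1, which regenerates active glucocorticoid, was lower in all 4 IUGR-HFhf libraries (28.7, 9.91 and 26.7 CPM against 1.26, 3.91, 7.99 and 3.76 CPM) and just missed the threshold (log2 fold change -2.30 ± 0.60 (SE), adjusted p = 0.0609). Of 8 genes of RNA without a poly(A) tail 1 fell (0.362% of all genes did), Hist1h4b, a histone H4 gene. It had 47.9, 52.5 and 51.4 CPM and 27.7, 28.95, 25.4 and 27.9 CPM (log2 fold change -0.88 ± 0.22 (SE), adjusted p = 0.037). It was called in none of the 7 fits that left out a library (adjusted p 0.0508 to 0.147) nor without replicates 2 and 3 (0.174), and histone H4 genes share sequence, so its value is uncertain. No gene was called among 27 of bile acid synthesis and transport, where 24 were negative (median -0.29), or among 68 of oxidative phosphorylation, 63 of the cytosolic ribosome, 39 interferon-stimulated, 17 of antigen presentation, 25 acute phase, 15 of inflammation, 25 of fibrosis, 20 of iron and heme, 28 of cell division, 22 of the insulin, glucocorticoid and thyroid hormone response and 22 heat shock genes. Cyp7a1 and Cyp8b1, bile acid synthesis enzymes, had overlapping groups and adjusted p of 0.966 and 0.683.

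The largest rises among called genes with separate groups and at least 1 CPM were Vsx1, Foxp2, Scd2, Slc22a8, Dbp and Ncam2, followed by Lrtm2, Per3, Dmrta1, Ace, Rgs8 and Fabp2. Several are scarce in liver. Vsx1, a homeobox gene known from the retina, had 3 reads in CON (0, 0 and 3) and 58 in IUGR-HFhf (6, 8, 9 and 35 in replicates 1 to 4), a ratio of 27.2 with a 95% interval from counting error of 8.85 to 136. Foxp2, a forkhead factor, had 0.258, 0.293 and 0.112 CPM in CON and 4.48, 3.28, 4.28 and 3.34 CPM in IUGR-HFhf (log2 fold change 4.04 ± 0.69 (SE), adjusted p = 0.00129). Slc22a8, an organic anion transporter, had 0.0516, 0.176 and 0.0561 CPM and 1.40, 2.11, 1.21 and 1.78 CPM (log2 fold change 3.96 ± 0.97 (SE), adjusted p = 0.037), from 1, 3 and 1 reads in CON. Dmrta1, a doublesex-related gene, had 2.89, 1.35 and 1.63 CPM and 8.67, 10.5, 13.6 and 33.2 CPM (log2 fold change 3.06 ± 0.75 (SE), adjusted p = 0.037). Ace, the angiotensin-converting enzyme, had 0.568, 0.528 and 0.337 CPM and 1.68, 2.96, 4.04 and 4.07 CPM (log2 fold change 2.72 ± 0.59 (SE), adjusted p = 0.0142). Lrtm2, Ncam2 and Rgs8 had log2 fold changes of 3.11, 3.44 and 2.66. Vsx1 and Foxp2 were called in all 7 fits that left out a library, Slc22a8 in 1, Dmrta1 and Lrtm2 in 3, Ace and Rgs8 in 4 and Ncam2 in 5. For Vsx1 the fitted log2 fold change was 4.502 with all libraries and 6.98 without CON replicate 3, the only CON library with its reads, so that the second value depends on the prior count and is no bound. Without replicates 2 and 3 the adjusted p was 0.125 for Slc22a8, 0.18 for Lrtm2, 0.0695 for Ace and 0.0683 for Rgs8.

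The largest falls were Mab21l3, Lrfn1, Marco, Sult1c2, Kif26b and Idi1, followed by Csmd1, Sqle, Hmgcs1, Rcan2, Slc37a2 and Gstm2. Mab21l3, a little-studied Mab-21 family gene, had 21.9, 8.86 and 9.54 CPM in CON and 0.140, 0.423, 2.26 and 0 CPM in IUGR-HFhf, with 0 reads in replicate 4 (log2 fold change -4.01 ± 0.57 (SE), adjusted p = 0.000136). The Kupffer cell receptor Marco, which binds microbes and debris, had 20.2, 9.27 and 5.78 CPM and 0.559, 2.32, 0.888 and 3.13 CPM (log2 fold change -2.75 ± 0.69 (SE), adjusted p = 0.0439). The other 16 macrophage markers tested were not called and their summed level was 842 to 925 CPM in CON and 725 to 1055 CPM in IUGR-HFhf for all 17. In bulk tissue, fewer cells of a type and less RNA per cell cannot be told apart. Rcan2, a calcineurin regulator, had 21.4, 18.4 and 17.3 CPM and 6.57, 7.50, 6.22 and 5.53 CPM (log2 fold change -1.56 ± 0.31 (SE), adjusted p = 0.00481). Slc37a2, a sugar-phosphate exchanger, had 6.09, 7.04 and 7.46 CPM and 3.22, 2.11, 2.58 and 1.46 CPM (log2 fold change -1.56 ± 0.34 (SE), adjusted p = 0.0152). Csmd1, Kif26b and Lrfn1 had log2 fold changes of -1.80, -1.90 and -2.84. Mab21l3 and Rcan2 were called in all 7 fits that left out a library, Lrfn1 in 5, Kif26b and Slc37a2 in 4, and Marco and Csmd1 in 1. The log2 fold change of Mab21l3 ranged from -6.05 without IUGR-HFhf replicate 3 to -3.47 without CON replicate 1, and was -7.55 without replicates 2 and 3, fitted on few reads in IUGR-HFhf. That of Kif26b was -1.08 without CON replicate 2 (adjusted p = 0.511). Without replicates 2 and 3 the adjusted p was 0.123 for Lrfn1, 0.262 for Marco, 0.262 for Csmd1, 0.104 for Kif26b and 0.104 for Slc37a2.

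Besides Marco and Gls2, a periportal hepatocyte marker called lower, the called cell type markers were pancreatic. Cpb1, a carboxypeptidase, had 2.01, 0.176 and 0.225 CPM in CON and 0.140, 84.8, 283 and 4.80 CPM in IUGR-HFhf, and Cela1, an elastase, 1.34, 0.763 and 0.505 CPM and 0.699, 17.8, 48.7 and 0.418 CPM. The groups overlap for both, and the calls (log2 fold changes 6.79 and 4.27, adjusted p 0.000536 and 0.00379) rest on replicates 2 and 3. Without these 2 libraries the log2 fold changes were 1.63 and -0.68, with adjusted p of 0.618 and 0.884. Cpa1, another acinar carboxypeptidase, had 137, 144 and 59.9 CPM and 1.26, 103, 319 and 2.82 CPM. It was not called over all 7 libraries (log2 fold change -0.08 ± 0.97 (SE), adjusted p = 0.998), and without replicates 2 and 3 its log2 fold change was -5.74 with an adjusted p of 0.0249. HFhf had 9.19, 2.27 and 6.92 CPM of Cpa1. In that alternative 61 genes were called, 33 of them among the 75.

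The HFhf libraries had a matching postnatal diet but no restriction before birth. IUGR-HFhf and HFhf share the CON libraries in their comparisons with CON, so their values are only set side by side. HFhf against CON gave 128 calls (63 higher and 65 lower, 1.16% of genes tested). The log2 fold changes of HFhf over CON were -1.83 for Hmgcs1, -2.25 for Idi1, -1.98 for Sqle, -1.29 for Dhcr7, 2.93 for Scd2, 0.66 for Dgat2 and 1.90 for Cpt1a. For Fasn the value was -0.31 in HFhf and 1.10 in IUGR-HFhf, and for Fgf21, a hormone of the fasted liver, 3.11 and 0.89. Compared directly, IUGR-HFhf and HFhf differed in 2 genes (0.0181% of genes, 698 at unadjusted p under 0.05), Cpb1 higher and Abhd3 lower (0.00905% each way). Abhd3, a phospholipase, had 45.3, 7.17 and 15.5 CPM in HFhf and 0.280, 0, 0.242 and 0.418 CPM in IUGR-HFhf, with no overlap (log2 fold change -6.54 ± 1.20 (SE), adjusted p = 0.0175), and CON had 0.0516, 0.117 and 0.225 CPM. Cpb1 was higher in IUGR-HFhf (log2 fold change 6.28, adjusted p = 0.0175), the libraries with acinar transcripts being the high ones. Without replicates 2 and 3 edgeR called no gene (460 at unadjusted p under 0.05). No lower gene was called when any 1 IUGR-HFhf library or HFhf replicate 1 was left out, so the call of Abhd3 was lost there. With all libraries DESeq2 called 11 genes and limma voom with sample weights 0 (805 at unadjusted p under 0.05). The log2 fold changes of IUGR-HFhf over HFhf were 1.41 for Fasn and -2.22 for Fgf21, neither called (adjusted p 0.596 and 0.357).

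The same comparison in libraries that share none with it gave like signs. Of the 75 genes, 67 (89.3%) had the same sign of log2 fold change in males at ZT4, where 60.2% of all genes did, and 68 (90.7%) in females at ZT16, where 59.3% did. In males 10 of the 75 were called in the same direction (0.462% of all genes were called), among them Hmgcs1 (-1.50), Idi1 (-2.54), Sqle (-2.09), Dgat2 (0.97), Tm6sf2 (0.78) and Herpud1 (1.17, log2 scale). In females at ZT16 36 were called in the same direction (2.22% of all genes were called), among them Hmgcs1 (-1.80), Scd2 (4.12), Foxp2 (5.85), Marco (-4.89), Gstm2 (-2.18) and Pklr (1.03). None of the 75 was called in the opposite direction in either.

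The sign differed in males at ZT4 for 8 genes, Vsx1 (0.129 to 0.427 CPM in CON and 0 CPM in IUGR-HFhf there), Slc22a8 (-0.82), Kif26b (0.27), Sult1c2 (0.08), Cpb1 (-1.51), Acvr1c (0.04), Adam15 and Sdc1, the last 3 named after their values were seen. Values in brackets without a unit are log2 fold changes. It differed at ZT16 for 7 genes, Dbp (-0.97), Per3 (-0.54), Cry1 (0.10), Cpt1a (-0.06), Cpb1 (-0.52), Mif4gd and Pcdh20, the last 2 named after their values were seen. Tested as a difference between the times, no gene passed in edgeR (606 at unadjusted p under 0.05), with 18 calls by DESeq2 and 4 by limma voom with sample weights. For Dbp the difference was 4.75 ± 1.20 (SE, log2; adjusted p = 0.357) and for Per3 3.60 ± 0.84 (adjusted p = 0.291). Tested as a difference between the sexes, again no gene passed in edgeR (599 at unadjusted p under 0.05), with 9 calls by DESeq2 and 2 by limma voom with sample weights. The distance from the estimate to the end of its 95% interval, without adjustment, had a median of 0.56 for the sexes and 0.53 for the times. Differences well above that size could be missed, as those of Dbp and Per3 between the times were not called. For Mab21l3 the difference, females minus males, was -3.04 (log2, adjusted p = 0.236).

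**Figure D5:**
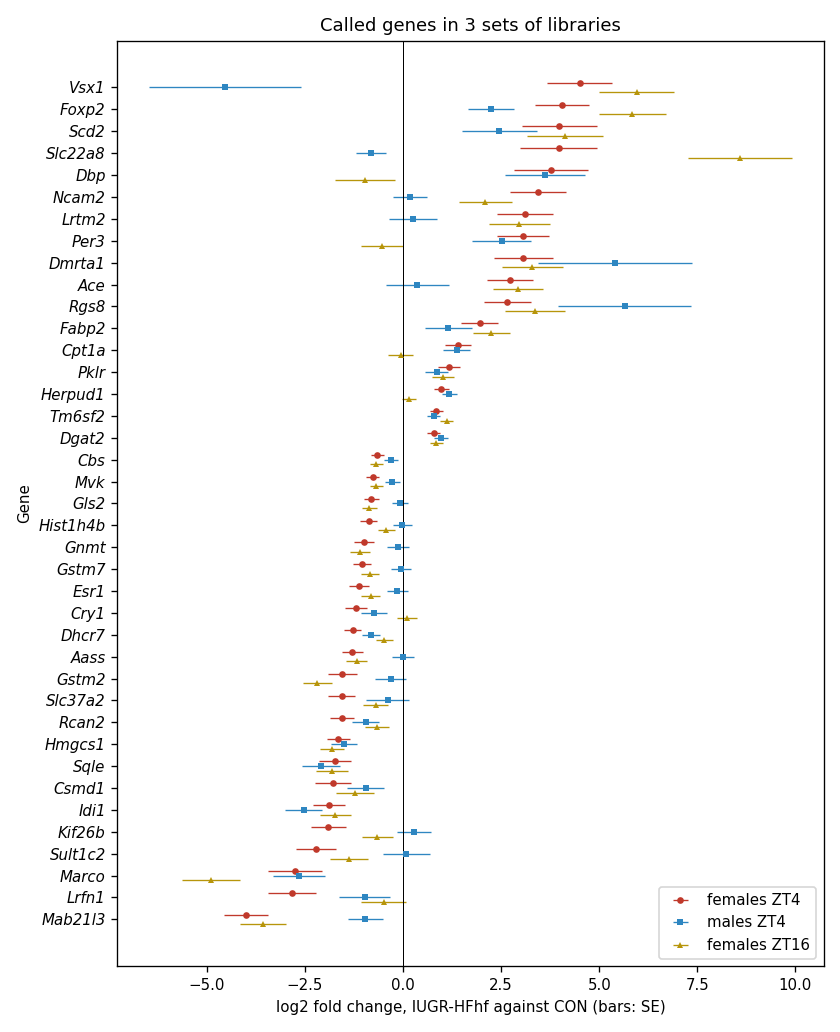
Log2 fold change of IUGR-HFhf over CON, with bars for the SE, for the 39 called genes named by rule and not acinar, in females at ZT4 (red circles), males at ZT4 (blue squares) and females at ZT16 (yellow triangles). Hmgcs1, Sqle, Idi1, Dgat2 and Tm6sf2 lie on the same side of 0 in all 3 sets, while Dbp, Per3, Cry1 and Cpt1a have the opposite sign at ZT16.

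In the authors' deposited table for this comparison, 47 genes were called higher and 31 lower, at an adjusted p under 0.05 and an absolute log2 fold change of at least 1. Both analyses called 19 higher and 19 lower, which is 48.7% of the authors' calls and 50.7% of those here. The authors' deposited table gives all 75 genes called here the same sign and 74 of them an adjusted p under 0.05. The authors' deposited table also calls acinar genes, such as Ctrb1 (log2 fold change 10.1) and Cela2a (7.54), and the muscle sodium channel Scn4a (19.65), which the filter on low counts left out here.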

How the data were processed

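Per the labels, liver RNA was depleted of ribosomal RNA, made into stranded libraries (the molecule label, in contrast, says polyA RNA) and read on a HiSeq 4000. Tools in the submitters' processing notes are STAR, featureCounts of Subread, FastQC and DESeq2, with build rn6. Versions, settings and the use of strand in counting are not given in the sources used here. The authors deposited raw counts per gene symbol for 17337 genes. The authors' deposited table of this comparison gives a log2 fold change with its standard error, a Wald score, a p-value and an adjusted p-value, under column names of DESeq2 per the file headers.

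All 56 libraries, in 16 groups of sex, time and diet, entered 1 fit in edgeR 4.0.16 (R 4.3.3) with TMM scaling, filterByExpr, robust dispersions and quasi-likelihood F tests (two-sided). This left 11047 genes, and 2487 had no read. Genes were called at a Benjamini-Hochberg adjusted p under 0.05 over all genes tested. CPM used TMM-scaled sizes, medians over a list used log2 with 0.5 CPM added, and an SE is the log2 fold change over the root of F. DESeq2 1.42.0 and limma 3.58.1 were alternatives. The alternatives were other scaling, no filter, fewer libraries in the fit, thinned CON and left-out libraries. The fit was tested on simulated counts.

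No pair of libraries within a group agreed within counting error (chi-square per degree of freedom 18.2 to 50.5). Intervals on reads cover counting error only. Replicate numbers follow accession order and pair nothing. The members and the 28 gene lists were chosen with earlier results of these data known. Named genes were the 12 largest rises and 12 largest falls among called genes with separate groups and at least 1 CPM in the higher group, up to 5 called members of each list, the leading or called markers of 14 cell types and a fixed set of metabolic and clock genes, a few of which are not reported here. Promoters are RefSeq's, build GRCr8, and differ in build from the counts.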

Additional observations from a re-analysis of the deposited data

Results flagged for a closer look

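Among 105 values tested in the 4 IUGR-HFhf libraries (named genes and summed markers), 11 (10.5%) had 1 library far from the other 3. Far means that the gap to its neighbour, as a share of the range, was above Dixon's 95% critical value. Chance gives about 5% for independent values. The sums include named genes that were also tested, so the 10.5% cannot be compared with it. Of the 11, replicate 3 was the one apart in 5, replicate 2 in 3, replicate 4 in 2 and replicate 1 in 1.

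In replicate 2, Acta1, skeletal muscle actin, was at 20.3 CPM and at most 0.162 CPM in the other 3, and Myh1, a fast myosin, was at 12.6 CPM and 0 in the others. The summed muscle markers were 84.95 CPM against 4.91 to 5.98 CPM. In replicate 3, Fabp4, an adipocyte fatty acid binding protein, was at 15.99 CPM against 0.979 to 1.88 CPM, and the summed adipocyte markers were 44.7 CPM against 11.8 to 16.8 CPM. Lcn2, an iron-binding protein of neutrophils and of stressed hepatocytes, was at 28.5 CPM there against 2.30 to 3.78 CPM, and the summed neutrophil markers, which include it, were 32.4 CPM against 3.97 to 6.01 CPM.

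Csmd1, a complement regulator, was lowest in replicate 3 at 4.76 CPM against 6.01 to 6.06 CPM. Epcam, a bile duct marker, was highest in replicate 1 at 5.59 CPM against 4.12 to 4.28 CPM. In replicate 4, Vsx1 was highest at 3.65 CPM against 0.727 to 0.845 CPM, and G6pc was lowest at 175 CPM against 300.4 to 326 CPM. Vsx1 is a called gene, and without replicate 4 it was still called (log2 fold change 3.59, against 4.502 with all 7 libraries). Csmd1 is also called, and lost its call without replicate 3 (log2 fold change -1.71, adjusted p = 0.122). That loss is not particular to replicate 3, since the call was kept in only 1 of the 7 fits that left out a library. In the fits that lost it the adjusted p was 0.0911 to 0.189.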

How the results depend on the processing

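The count of 75 called genes was 75 with RLE scaling, 72 with upper-quartile scaling, 83 without a filter on low counts, 99 with the 41 libraries outside IUGR-RC, 68 with the 2 groups alone (34 shared) and 62 with CON thinned. DESeq2 called 142 and limma voom with sample weights 139. Leaving out 1 library gave 32 to 85, and leaving out replicates 2 and 3, chosen after seeing the data, gave 61. For IUGR-HFhf against HFhf, 2 became 9 without a filter, 11 with DESeq2, 0 with voom, 0 with the groups alone in edgeR (603 at unadjusted p under 0.05), 0 to 9 with 1 library left out (0 without IUGR-HFhf replicate 3, 672 unadjusted) and 0 without replicates 2 and 3. The difference between the sexes gave 5 calls with the groups alone, 9 with DESeq2, 2 with voom and 0 to 1 with 1 library left out. The difference between the times gave 4 with the 41 libraries, 1 with the groups alone, 18 with DESeq2, 4 with voom and 0 to 2 with 1 library left out. The cause was not tested. Of 41 called genes named by rule, all kept sign and call with RLE and upper-quartile scaling, 40 with DESeq2 and 15 of 40 with the groups alone. With the groups alone the calls of Hmgcs1, Idi1, Mvk, Sqle, Scd2, Dgat2, Cpt1a, Fabp2, Dbp, Per3, Cry1, Aass and Gls2 were lost. So were those of Gnmt, Gstm2, Gstm7, Sult1c2, Esr1, Dmrta1, Lrtm2, Kif26b, Mab21l3, Marco, Cpb1 and Cela1. With 1 library, or replicates 2 and 3, left out, the log2 fold change of 5 named genes changed sign. It was -5.74 to 0.32 for Cpa1, -0.63 to 0.35 for Cyp7a1, -0.42 to 0.056 for Pdk4 and -0.032 to 0.62 for Cd36, none of them called with all libraries. For Cela1, which was called, it was -0.68 to 4.72. No paired analysis was possible because the replicate numbers follow accession order and the labels pair no samples. CON has 3 libraries, and median depths were 17.2 M reads in CON and 10.3 M in IUGR-HFhf, which limits the precision.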

Other observations

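Called genes outside the lists were described only in part above. Fkbp11, a peptidyl-prolyl isomerase of the secretory pathway, had 9.24, 6.92 and 8.48 CPM in CON and 23.1, 12.3, 15.7 and 16.4 CPM in IUGR-HFhf (log2 fold change 1.03 ± 0.19 (SE), adjusted p = 0.00257). Dmbt1, a scavenger receptor glycoprotein of epithelia, had 5.42, 6.45 and 6.57 CPM and 16.2, 11.8, 24.2 and 19.2 CPM (log2 fold change 1.55 ± 0.34 (SE), adjusted p = 0.0142). Atp6v0a2, a subunit of the vacuolar proton pump, had 24.6, 25.2 and 22.5 CPM and 40.1, 40.6, 37.2 and 33.5 CPM (log2 fold change 0.65 ± 0.12 (SE), adjusted p = 0.00197). These 3 rose, with no overlap between groups. Fkbp11 and Atp6v0a2 were called in all 7 fits that left out a library, and Dmbt1 in 3. They were picked after their values were seen.

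Among falls outside the lists, Pls1, an actin-bundling protein, had 52.8, 58.3 and 40.97 CPM in CON and 20.8, 26.9, 17.9 and 30.7 CPM in IUGR-HFhf (log2 fold change -1.07 ± 0.17 (SE), adjusted p = 0.000381). Acvr1c, the activin receptor ALK7, had 10.9, 8.86 and 11.1 CPM and 5.18, 6.13, 5.25 and 5.12 CPM (log2 fold change -0.92 ± 0.17 (SE), adjusted p = 0.00257). Pon3, a lactonase bound to HDL, had 268, 277 and 266 CPM and 178, 169.9, 138 and 171 CPM (log2 fold change -0.72 ± 0.15 (SE), adjusted p = 0.0101), and Slc17a3, a urate and phosphate transporter, 285, 276 and 261 CPM and 179.9, 181, 141 and 172 CPM (log2 fold change -0.70 ± 0.14 (SE), adjusted p = 0.00352). Pon3 and Slc17a3 also had adjusted p of 0.0411 and 0.0157 in males at ZT4 (log2 fold changes -0.67 and -0.71). Acvr1c had the opposite sign in males (log2 fold change 0.04, adjusted p = 0.958), and Pls1 had -0.64 (adjusted p = 0.126). These 4 were picked after their values were seen, and each was called in all 7 fits that left out a library.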
